A study of Mus musculus with 8 samples.

Results

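The genes described here are 10 transcription factors outside the Hox clusters that mark the body position and embryonic origin of fat depots: Tbx15, Tbx5, Shox2, En1, Sim1, Tcf21, Wt1, Gata6, Gata4 and Nr2f1. Each was read from the probe set whose annotation gives that symbol and no other. The rule would have taken the probe set with the highest mean over the 8 arrays where several carried a symbol, but each of the 10 had 1 probe set. They are 10 of 19938 genes measured with 1 symbol.

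The arrays held RNA of adipose precursors (APs) from male C57BL/6J mice aged 7 to 8 weeks, fed a standard diet (SD) or a high-fat diet (HFD) for 3 days, with no engineered allele named for them. The precursors came from inguinal subcutaneous fat (scAPs) or perigonadal visceral fat (viAPs) and were bead-purified, by removal of CD45+ and CD31+ cells and retention of SCA-1+ cells. There were 2 arrays for each of the 4 groups, SD scAP (replicates 1 and 2), SD viAP (3 and 4), HFD viAP (5 and 6) and HFD scAP (7 and 8), and the RNA on an array was a pool from 3 mice, so that p-values measure only the spread between pools. Levels are log2 intensities of an Affymetrix Mouse Gene 1.0 ST probe set, on which a difference of 1 is a 2-fold difference, and levels of different genes are not compared because each probe set has its own brightness.

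Fat depots arise from different stretches of mesoderm, and their precursors keep the transcription factors of that origin in the adult. Factors of the limb and body wall, such as the T-box proteins Tbx15 and Tbx5 and the homeodomain proteins Shox2 and En1, are known as marks of subcutaneous precursors. Factors of visceral mesenchyme and of the coelomic lining, such as Wt1, Tcf21 and Gata6, are known as marks of precursors of the fat inside the body cavity. A T-box is a DNA-binding domain, a GATA factor binds DNA through zinc fingers, and Nr2f1 is an orphan nuclear receptor.

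Stretches of promoter are shown for members of both kinds, so that the sequence next to the start of a gene high in viAPs (Tcf21 and Nr2f1) can be set beside that of a gene high in scAPs (Shox2 and En1). RefSeq, on build GRCm38.p6, gave a promoter entry for 5 of the 10 members, Shox2, Sim1, En1, Tcf21 and Nr2f1, the last with 2 entries. Tbx15, Tbx5, Wt1, Gata4 and Gata6 had no entry. Each run below holds the 250 bases before the annotated start, 5′ to 3′ on the strand of the gene, and capitals mark matches to an E-box (CANNTG), the letters bound by basic helix-loop-helix proteins. They lie at chr10:22820144-22820393 on the minus strand for Tcf21, chr13:78198874-78199123 on the minus strand for Nr2f1 (entry 1), chr3:66981772-66982021 on the minus strand for Shox2 and chr1:120602237-120602486 on the plus strand for En1.
Tcf21: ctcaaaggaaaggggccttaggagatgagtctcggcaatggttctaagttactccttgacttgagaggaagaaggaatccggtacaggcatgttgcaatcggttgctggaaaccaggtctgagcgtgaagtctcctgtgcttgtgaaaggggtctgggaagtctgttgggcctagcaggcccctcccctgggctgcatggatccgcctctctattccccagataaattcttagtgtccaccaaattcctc
Nr2f1: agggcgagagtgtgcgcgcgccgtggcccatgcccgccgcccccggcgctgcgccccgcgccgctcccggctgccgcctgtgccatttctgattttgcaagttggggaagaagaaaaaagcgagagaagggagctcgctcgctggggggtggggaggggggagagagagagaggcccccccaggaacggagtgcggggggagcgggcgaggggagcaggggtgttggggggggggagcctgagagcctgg
Shox2: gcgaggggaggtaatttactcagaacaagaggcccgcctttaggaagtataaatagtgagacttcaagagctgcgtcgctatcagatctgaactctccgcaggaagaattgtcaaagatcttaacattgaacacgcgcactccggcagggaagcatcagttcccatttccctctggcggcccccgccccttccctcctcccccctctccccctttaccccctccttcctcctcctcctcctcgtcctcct
En1: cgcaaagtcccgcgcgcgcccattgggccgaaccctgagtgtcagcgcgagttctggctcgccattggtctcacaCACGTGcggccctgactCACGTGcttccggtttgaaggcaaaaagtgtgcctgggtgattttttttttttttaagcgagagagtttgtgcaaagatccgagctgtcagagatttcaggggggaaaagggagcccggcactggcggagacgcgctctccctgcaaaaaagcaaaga

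En1 held the E-box CACGTG at 175 and at 158 bases before its start. Sim1 had E-boxes at 214 and at 53 bases and the second entry of Nr2f1 at 137 and 31 bases. The stretches of Tcf21 and Shox2 and the first entry of Nr2f1 had no E-box letters, which 66.2% of 32851 promoters of the same length hold. Further motifs were searched on both strands of the 6 stretches and none was found. They were the GATA motif GATAAG, which 6.55% of promoters hold. The T-box motif AGGTGT is found in 11.8% of them. The homeodomain motif TAATTA is found in 4.84%. The nuclear receptor motif AGGTCA, here as a single copy, is found in 14.0%. An AGGTGT preceded by C also makes an E-box, while the other motifs cannot lie inside one. The stretches also differed in CG dinucleotides. Nr2f1 entry 1 had 22, and 85.2% of promoters have fewer. En1 had 19 (80.3% have fewer), Shox2 and Sim1 11 each (64.4%), Tcf21 5 (44.4%) and Nr2f1 entry 2 only 2 (18.8%). Tcf21 and the second Nr2f1 entry thus lay below the median promoter, which has 6, and the others above it.

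SD viAP replicate 4 stood apart from the other viAP arrays in these genes, and it is given first because it touches every comparison with SD viAPs. Its Tbx15 level was 9.77, against 4.70 on SD viAP replicate 3 and 9.67 and 9.34 on the SD scAP arrays. Its Tcf21 level was 5.32, against 9.61 on replicate 3 and 5.04 and 5.52 on the SD scAP arrays. Its Wt1 level was 5.98, against 8.71 on replicate 3. The array labelled SD viAP replicate 4 thus had the levels of the scAP arrays in all 3 genes. Over the 10 members it lay within the range of the 4 scAP arrays for 8, all but Tbx15 and Gata6, where 59.2% of 21789 probe sets with 1 symbol did. It was closer to the mean of the SD scAP arrays than to replicate 3 for 9, all but Gata4, where 50.9% of those probe sets were. Among the 391 probe sets for which the other 3 viAP arrays and the 4 scAP arrays do not overlap and differ at least 2-fold, it was closer to the SD scAP mean for 91.0%. The label was kept, the cause was not tested, and results that rest on this array are given with and without it.

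**Figure D1:**
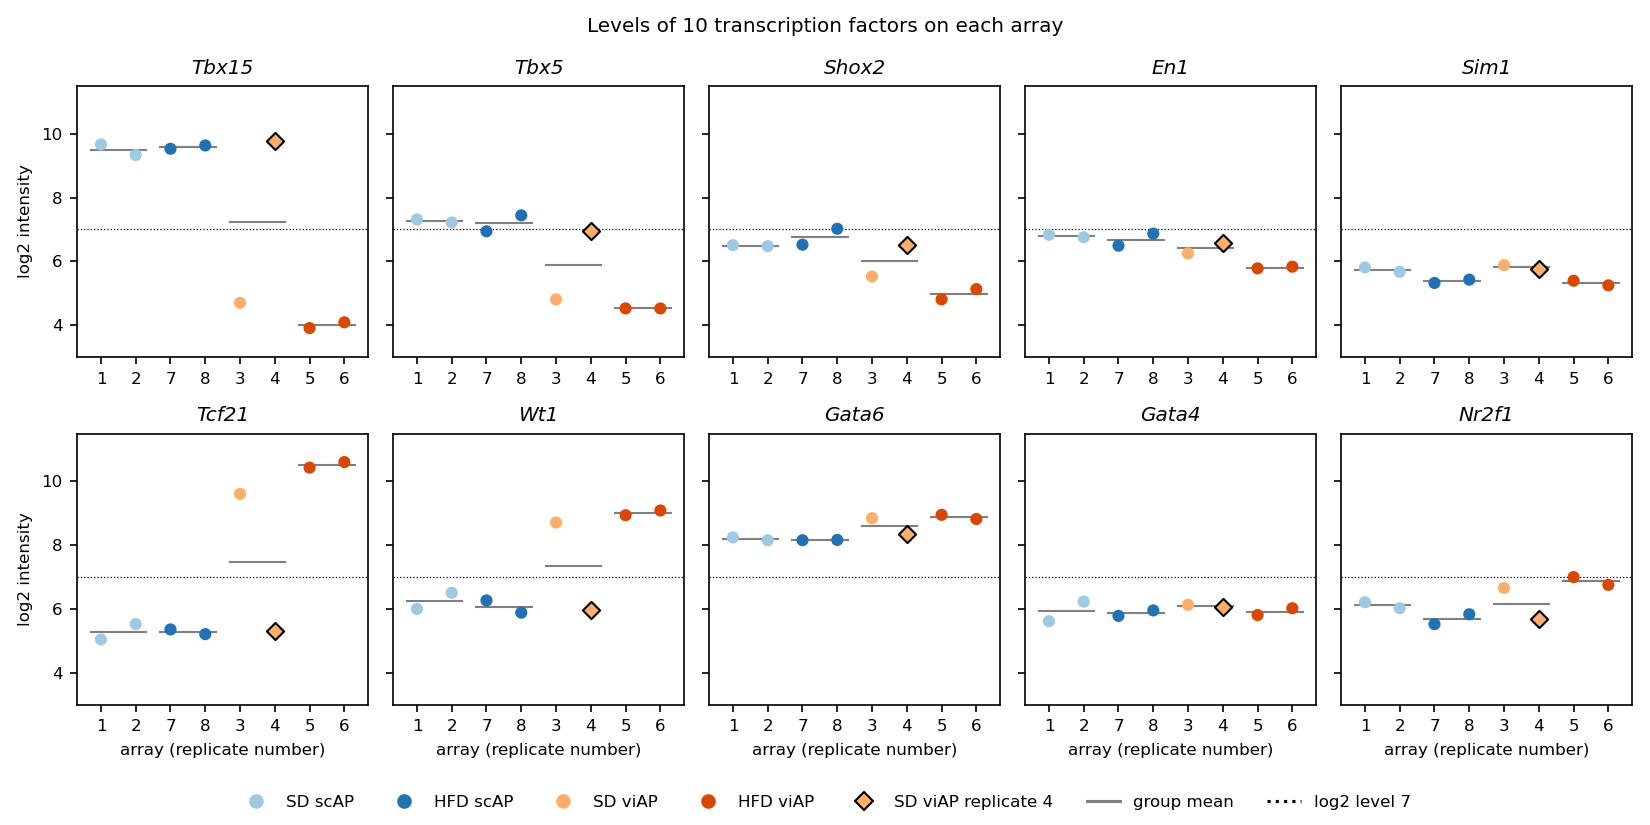
Log2 intensity of each of the 10 genes (y axis) on each of the 8 arrays (x axis, replicate numbers), coloured by group. Grey bars are means of 2 arrays, the dotted line is the level 7 used in the study's filter, and the diamond is SD viAP replicate 4. In Tbx15, Tbx5, Tcf21 and Wt1 the diamond lies with the scAP points and far from the other viAP points.

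The other 3 viAP arrays did not overlap with the 4 scAP arrays for 8 of the 10 genes, where 9.57% of the 21789 probe sets did not. They lay above for Tcf21, Wt1, Gata6 and Nr2f1, as 5.23% of them did, and below for Tbx15, Tbx5, Shox2 and En1, as 4.34% did. With SD viAP replicate 4 included, only Gata6 still separated the depots. Its lowest viAP level was 8.34 and its highest scAP level 8.24. With all viAP arrays, 3.82% of the 21789 probe sets separated the depots. Sim1 and Gata4 overlapped between the depots. Neither exceeded a log2 level of 7 on any array, and whether their levels are above background was not tested. Their overlap therefore cannot tell equal expression from none.

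Of the members, 5 passed the study's filter, which asks for a level above 7 on at least 3 arrays and for a mean absolute deviation among those of the upper tercile. They were Gata6 (above 7 on 8 arrays), Tbx15 (on 5), and Tbx5, Tcf21 and Wt1 (on 3 each). Shox2 exceeded 7 on 1 array and Sim1, En1, Gata4 and Nr2f1 on none, although Nr2f1 reached it on HFD viAP replicate 5. For members outside the filter, p was adjusted over all 21789 probe sets. Of the 5 that passed, Tcf21 and Wt1 exceeded 7 only on the other 3 viAP arrays, Tbx5 only on scAP arrays, and Tbx15 only on the scAP arrays and SD viAP replicate 4. These 4 entered through the arrays where they are high and so had to differ, and their calls over the filtered probe sets are given as a description. A gene is called at an adjusted p under 0.05 from limma and a difference of at least 2-fold.

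The first comparison asks how the depots differ under HFD, where the 2 arrays of each group were close in these genes. Tbx15, Tbx5, Shox2 and En1 were lower on the HFD viAP arrays than on the HFD scAP arrays, and Tcf21, Wt1, Gata6 and Nr2f1 were higher. The largest differences were those of Tbx15 and Tcf21. On the lower side, the levels of Tbx15, Tbx5 and Shox2 in HFD viAPs and of Tcf21 in HFD scAPs lay below the medians of the arrays, which were 5.59 to 5.75 over all probe sets. Whether such levels are above background was not tested for any member, so that differences are given in log2 of the deposited values and not as folds of transcript. The HFD arrays of the depots did not overlap for the same 8 genes as above, where 40.3% of 21789 probe sets did not overlap.

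Tbx15, which is needed for the skeleton of the limb girdles and is a mark of subcutaneous fat, had levels of 9.53 and 9.63 on the HFD scAP arrays and of 3.91 and 4.09 on the HFD viAP arrays. The 2 groups lay far apart, with a difference of -5.59 in log2 level (SE 1.40, adjusted p = 0.081 from limma over all 8 arrays). Without SD viAP replicate 4 the difference was the same and its error smaller (SE 0.15, adjusted p = 0.000611 from limma). The 4 groups share 1 estimate of the spread in the model, so that the gap between the SD viAP arrays enters the error of every comparison. This holds for each gene below whose levels differ on replicates 3 and 4.

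Tbx5, the T-box factor of the forelimb and heart, had levels of 6.94 and 7.44 in HFD scAPs and of 4.52 on both HFD viAP arrays. Its difference was -2.67 (SE 0.61, adjusted p = 0.068 from limma, and 0.00265 without SD viAP replicate 4). Shox2, a homeodomain factor of the proximal limb and sinus node, had levels of 6.52 and 7.02 in HFD scAPs and of 4.81 and 5.13 in HFD viAPs. Both scAP arrays thus lay above both viAP arrays for these 2 genes. The Shox2 difference was -1.80 (SE 0.34, adjusted p = 0.12, and 0.0318 without replicate 4 from limma). En1, the homeodomain factor of the ventral limb ectoderm and of the dermomyotome, had levels of 6.49 and 6.87 in HFD scAPs and of 5.78 and 5.83 in HFD viAPs. Its difference of -0.87 was under 2-fold (SE 0.18, adjusted p = 0.143, and 0.0871 without replicate 4 from limma), and it was not called under either fit.

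Tcf21, a basic helix-loop-helix factor of visceral mesenchyme that is known as a mark of visceral precursors, had levels of 5.36 and 5.21 on the HFD scAP arrays and of 10.43 and 10.61 on the HFD viAP arrays. The viAP arrays lay over 5 log2 units above the scAP arrays. The difference was 5.24 (SE 1.19, adjusted p = 0.0663 from limma, and 0.000613 without SD viAP replicate 4).

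Wt1, the zinc finger factor of the coelomic lining and of visceral fat precursors, had levels of 6.27 and 5.88 in HFD scAPs and of 8.94 and 9.09 in HFD viAPs. The difference was 2.94 (SE 0.78, adjusted p = 0.088, and 0.00303 without replicate 4 from limma). Gata6, a GATA factor of the endoderm and the mesoderm of the gut and heart, was well above 7 in both depots, at 8.15 and 8.16 in HFD scAPs and 8.95 and 8.82 in HFD viAPs. It was higher on both viAP arrays, and its groups were tight. Its difference of 0.73 was under 2-fold (SE 0.18, adjusted p = 0.0762, and 0.0142 without replicate 4 from limma), so that Gata6 differed between depots by less than the size asked of a call.

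Nr2f1, also known as COUP-TFI, a nuclear receptor of the developing nervous system and mesenchyme, had levels of 5.52 and 5.83 in HFD scAPs and of 7.00 and 6.75 in HFD viAPs. Its difference was 1.20 (SE 0.31, adjusted p = 0.23, and 0.0492 without replicate 4 from limma), and this call is the one nearest the threshold. Sim1, the bHLH-PAS factor of the hypothalamus and lateral somite, had levels of 5.32 and 5.43 in HFD scAPs and of 5.39 and 5.25 in HFD viAPs. Gata4, the GATA factor of heart and gonad, had levels of 5.78 and 5.95 in HFD scAPs and of 5.81 and 6.02 in HFD viAPs. The HFD arrays of the depots overlapped in both genes, with differences of -0.05 (SE 0.13) for Sim1 and 0.05 (SE 0.21) for Gata4.

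Over all 8 arrays limma called 0 of the 10 members between the HFD depots, where it called 1.98% of 3076 filtered probe sets and 0.00459% of the 21789 probe sets with 1 symbol. Before adjustment, 8 of the 10 had a p under 0.05, all but Sim1 and Gata4, as had 9.24% of the 21789 probe sets. With the model fitted to only the 4 HFD arrays, 4 were called, Tbx15, Tbx5, Tcf21 and Wt1, against 6.73% of the filtered and 0.0138% of all probe sets with 1 symbol. In the fit without SD viAP replicate 4, 6 were called, these 4 together with Shox2 and Nr2f1, where 7.42% of 2950 filtered probe sets and 1.28% of all probe sets with 1 symbol were. With replicate 3 left out in its place, these differences and their errors were the same by construction. A group of 1 array adds nothing to the estimate of the spread. Only the filtered set changed, so that this fit is no second support for the calls. In that fit Tcf21 and Wt1 did not pass the filter and were adjusted over all probe sets. In bulk pools a difference in the number of cells of a type and a difference in RNA per cell cannot be told apart.

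**Figure D2:**
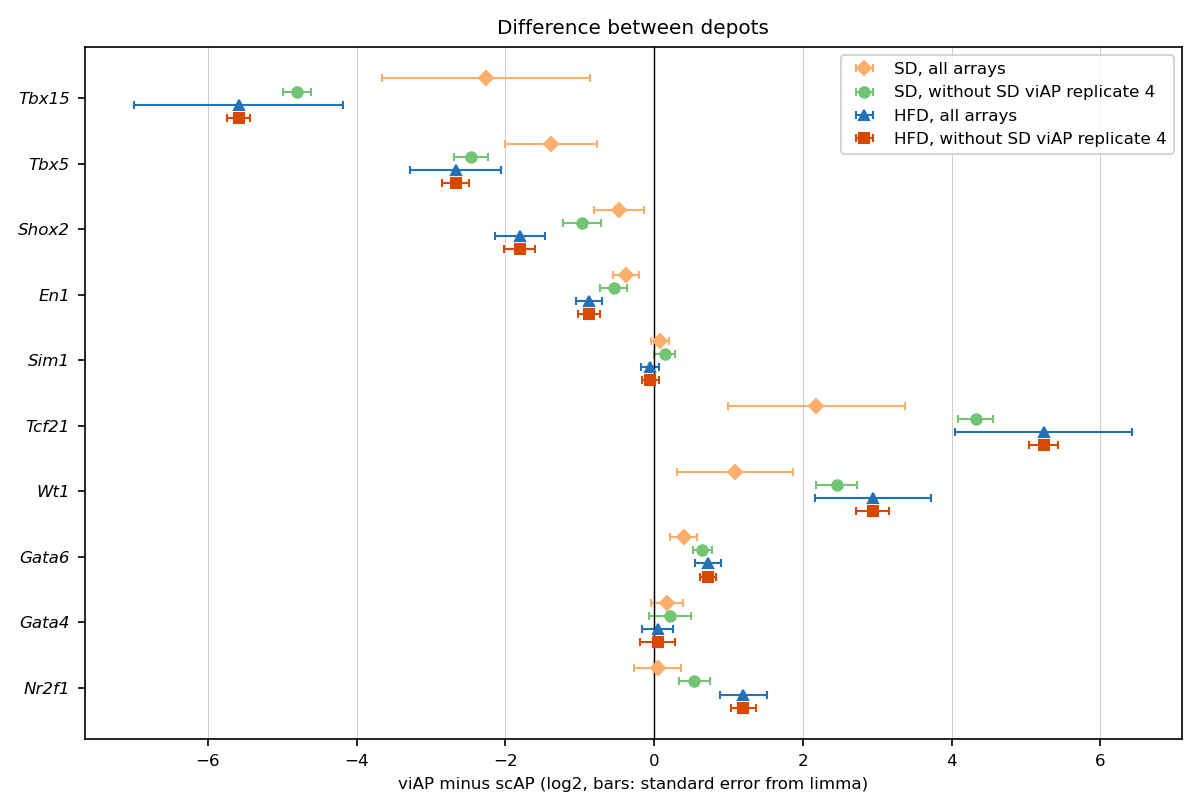
Difference between viAPs and scAPs in log2 level (x axis) for each gene (y axis), with standard errors from limma, for SD with all 8 arrays (diamonds), SD without SD viAP replicate 4 (circles), HFD with all 8 arrays (triangles) and HFD without that array (squares). Without it the SD difference for Tbx15 moves from -2.26 to -4.80, while the HFD difference stays at -5.59 and loses most of its error.

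The same question under SD depends on SD viAP replicate 4. With both SD viAP arrays, the mean level of Tbx15 was 9.50 ± 0.23 (standard deviation, n = 2) in SD scAPs and 7.24 ± 3.59 (n = 2) in SD viAPs. That of Tcf21 was 5.28 ± 0.34 and 7.46 ± 3.03 (standard deviation, n = 2 each). The spread between the 2 SD viAP arrays exceeded the difference between the depots in both genes.

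Limma called 0 of the 10 members and 0% of the filtered probe sets, and 0 members had a p under 0.05 before adjustment, where 9.66% of all probe sets with 1 symbol had. The model without moderation also gave 0 of 10, adjusted or not. The differences were -2.26 for Tbx15 (SE 1.40, adjusted p = 0.327), 2.18 for Tcf21 (SE 1.19, adjusted p = 0.28), -1.39 for Tbx5 (SE 0.61, adjusted p = 0.215) and 1.09 for Wt1 (SE 0.78, adjusted p = 0.379), all from limma. Gata6 differed by 0.40 (SE 0.18, adjusted p = 0.218), and no other member reached 0.5 in size.

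Once SD viAP replicate 4 is left out, the SD viAP group is the single array of replicate 3, assumed to vary like the other groups. Tbx15, at 4.70 on that array, was then lower in SD viAPs (log2 difference -4.80, SE 0.19, adjusted p = 0.00223 from limma). Tcf21, at 9.61, was higher (4.32, SE 0.23, adjusted p = 0.00259). Among the 10 members these 2 had the largest differences between the depots under both diets.

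Tbx5 had levels of 7.31 and 7.22 in SD scAPs and of 4.81 on SD viAP replicate 3, a difference of -2.46 (SE 0.23, adjusted p = 0.00998 from limma). Wt1 had levels of 6.00 and 6.51 in SD scAPs and of 8.71 on replicate 3, a difference of 2.46 (SE 0.28, adjusted p = 0.0136 from limma). On SD viAP replicate 4 the same genes read 6.95 and 5.98. Each was below both SD scAP values but within the range of all scAP arrays. Limma thus called 4 of the 10 without that array, where it called 7.63% of 2950 filtered probe sets and 0.0826% of all probe sets with 1 symbol.

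Gata6 had levels of 8.24 and 8.15 on the SD scAP arrays, and of 8.85 on replicate 3 and 8.34 on replicate 4 of SD viAP. On replicate 4 it lay between the values of the scAP arrays and of replicate 3. Without that array its difference was 0.65, under 2-fold (SE 0.13, adjusted p = 0.0375 from limma). Shox2 read 6.51 and 6.48 in SD scAPs, 5.52 on replicate 3 and 6.52 on replicate 4, and En1 6.83 and 6.75, 6.25 and 6.58 in the same order. Both were lower on replicate 3 than on either scAP array, with differences of -0.97 (SE 0.25, adjusted p = 0.261) and -0.55 (SE 0.19, adjusted p = 0.357) from limma, and neither was called. Nr2f1 read 6.21 and 6.02 in SD scAPs, 6.66 on replicate 3 and 5.67 on replicate 4, so that the 2 SD viAP arrays lay on either side of the scAP arrays. Its difference was 0.05 with both arrays (SE 0.31) and 0.54 without replicate 4 (SE 0.20, adjusted p = 0.39 from limma). Sim1 and Gata4 differed by 0.14 (SE 0.14) and 0.21 (SE 0.28) and were called under neither fit.

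With replicate 4 kept and replicate 3 left out, the SD difference turned to 0.27 for Tbx15, 0.03 for Shox2, -0.28 for Wt1 and -0.44 for Nr2f1, and it was 0.04 for Tcf21 and -0.31 for Tbx5. None of these was called, with adjusted p from 0.456 for Tbx15 to 0.985 for Shox2 among the 6. The difference between the SD depots in these genes is thus that of replicate 3 alone.

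The next comparison asks whether 3 days of HFD moved these genes within viAPs. It shares the HFD viAP arrays with the HFD depot comparison and the SD viAP arrays with the SD one, so that their values stand side by side and are no independent support for each other. With all arrays, both HFD viAP arrays lay beyond both SD viAP arrays for 9 of the 10 members, above for Tcf21, Wt1 and Nr2f1 and below for Tbx15, Tbx5, Shox2, En1, Sim1 and Gata4, where 60.1% of 21789 probe sets did not overlap. Limma called 0 of the 10, against 13.5% of the filtered probe sets and 1.74% of all with 1 symbol, and 4 had an unadjusted p under 0.05, against 26.4% of the latter. The model without moderation gave 2 members unadjusted and 0 adjusted.

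The differences between HFD and SD viAPs were large and uncertain for the genes on which the SD viAP arrays disagree. They were -3.24 for Tbx15 (SE 1.40, adjusted p = 0.0766), 3.05 for Tcf21 (SE 1.19, adjusted p = 0.0574), 1.67 for Wt1 (SE 0.78, adjusted p = 0.0937), -1.36 for Tbx5 (SE 0.61, adjusted p = 0.0867) and -1.06 for Shox2 (SE 0.34, adjusted p = 0.115) from limma. Without SD viAP replicate 4 they were -0.70 for Tbx15, 0.91 for Tcf21, 0.30 for Wt1, -0.28 for Tbx5 and -0.56 for Shox2. In each of these 5 genes the diet difference was thus smaller against replicate 3 alone than over both SD viAP arrays.

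Against replicate 3 alone 2 genes passed the p threshold with differences under 2-fold. Tcf21 stood at 9.61 on replicate 3 and at 10.43 and 10.61 on the HFD arrays (SE 0.23, adjusted p = 0.0328 from limma). Tbx15 stood at 4.70 and at 3.91 and 4.09 (SE 0.19, adjusted p = 0.0363 from limma). The gene higher in viAPs was higher after HFD and the gene lower in viAPs lower, relative to a single SD array. No member differed by 2-fold or more against replicate 3 alone, so that none was called. With replicate 3 left out instead, 5 were called, Tbx15, Tbx5, Shox2, Tcf21 and Wt1, where 23.4% of 2888 filtered probe sets and 2.68% of all with 1 symbol were. The difference was then -5.78 for Tbx15 and 5.20 for Tcf21.

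Sim1 and Gata4 did not separate the depots, but Sim1 was lower on the HFD arrays of both. Its levels were 5.88 and 5.75 in SD viAPs against 5.39 and 5.25 in HFD viAPs, and 5.81 and 5.67 in SD scAPs against 5.32 and 5.43 in HFD scAPs. The 4 SD arrays thus lay above the 4 HFD arrays, including SD viAP replicate 4. The differences were -0.50 in viAPs (SE 0.13, adjusted p = 0.071) and -0.37 in scAPs (SE 0.13, adjusted p = 0.258) from limma, both under 2-fold and not called. All 8 levels were below 6. In viAPs 31.2% of 21789 probe sets were lower on both HFD arrays than on both SD arrays, and in scAPs 18.8%. The share that split all 8 arrays by diet was not computed, so that this pattern of Sim1 is given as a description.

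In scAPs the members were close between the diets. Tbx15 read 9.67 and 9.34 under SD and 9.53 and 9.63 under HFD. Tcf21 read 5.04 and 5.52 under SD and 5.36 and 5.21 under HFD. The arrays of the 2 diets overlapped in both genes and in 7 members in all. The other 3 were Shox2, higher on both HFD arrays, and Sim1 and Nr2f1, lower on both, where 40.5% of probe sets did not overlap. The difference for Nr2f1 was -0.44 (SE 0.31, adjusted p = 0.57) and that for Shox2 0.28 (SE 0.34, adjusted p = 0.751) from limma. Limma called 0 of the 10, against 3.38% of the filtered probe sets, and 0 without SD viAP replicate 4, where it called 3.9%. Before adjustment 1, Sim1, had a p under 0.05, as had 14.8% of all probe sets with 1 symbol.

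**Figure D3:**
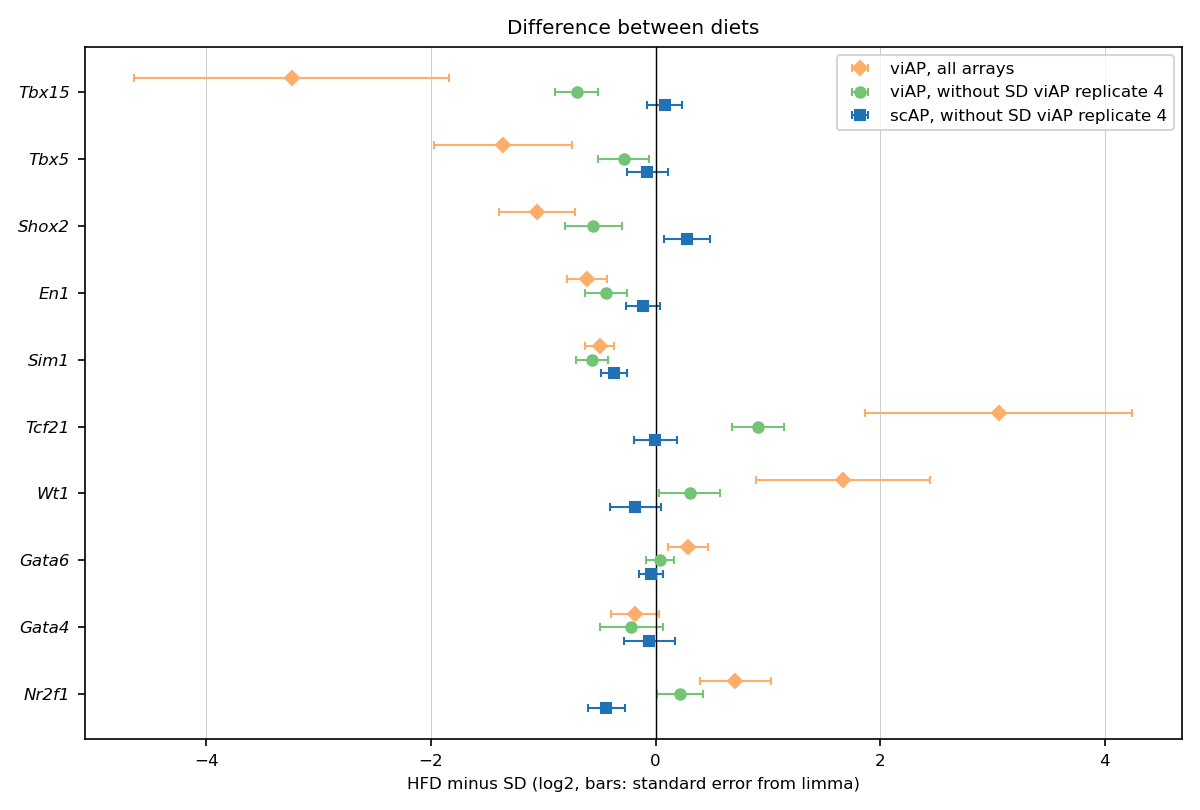
Difference between HFD and SD in log2 level (x axis) for each gene (y axis), with standard errors from limma, for viAPs with all 8 arrays (diamonds), viAPs without SD viAP replicate 4 (circles) and scAPs in the latter fit (squares). Leaving out that array moves Tbx15 in viAPs from -3.24 to -0.70 and Tcf21 from 3.05 to 0.91, while the scAP differences lie between -0.44 and 0.28.

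The diet difference in viAPs minus that in scAPs was also tested itself. It was -3.32 for Tbx15 (SE 1.98, adjusted p = 0.47) and 3.06 for Tcf21 (SE 1.68, adjusted p = 0.45) over all arrays, and -0.79 (SE 0.24, adjusted p = 0.353) and 0.91 (SE 0.30, adjusted p = 0.373) without SD viAP replicate 4, from limma. Limma called 0 of the 10 under both fits, and 0% of the filtered probe sets. Before adjustment 2 members had a p under 0.05 in each, where over all arrays 6.14% of probe sets with 1 symbol had, and the model without moderation gave 0. With replicate 3 left out, Tbx15 (-5.86), Tbx5 (-2.36) and Tcf21 (5.20) were called, where 2.46% of 2888 filtered probe sets and 0.0734% of all with 1 symbol were. These 3 calls rest on replicate 4 as the lone SD viAP array.

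Over the 8 arrays the members fell into sets that varied together. The Pearson correlation of Tbx15 was 0.990 with Tbx5, 0.962 with Shox2 and 0.925 with En1, and it was -0.998 with Tcf21, -0.994 with Wt1, -0.972 with Gata6 and -0.919 with Nr2f1. Tcf21 and Wt1 correlated at 0.994. Sim1 and Gata4 stood outside both sets, with correlations to Tbx15 of 0.248 and -0.131. These are descriptions over 8 arrays that share normalization and fall into 2 levels for most genes, so that any pair of genes that separates the arrays in the same way has a high value.

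Among the filtered probe sets, the genes most like Tbx15 by that measure were Tbx5 (0.990), Mmp27 (0.990), Cldn10 (0.989), Hoxc10 (0.988) and Mmp3 (0.985), and those most like Tbx5 were Cldn10 (0.994), Akr1c18 (0.994), Il1r2 (0.993), Tbx15 (0.990) and Usp18 (0.989). Mmp27 and Mmp3 are matrix metalloproteinases and Hoxc10 is a posterior Hox factor. Mmp27 had levels of 9.64 and 9.23 on the SD scAP arrays, 6.61 on SD viAP replicate 3, 9.36 on its replicate 4, 6.75 and 6.79 in HFD viAPs and 9.14 and 9.37 in HFD scAPs. It thus showed the same split, with replicate 4 on the scAP side.

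The genes most like Tcf21 were Lrrn1 (0.996), Wt1 (0.994), Garnl3 (0.993), Smim41 (0.990) and Slit2 (0.989), a secreted axon guidance ligand. Those most like Wt1 were Lrrn1 (0.995), Tcf21 (0.994), Garnl3 (0.990), Smim41 (0.989) and Trf (0.988), which encodes transferrin. Trf had levels of 9.11 and 9.10 on the SD scAP arrays, 12.06 on SD viAP replicate 3, 9.01 on its replicate 4, 11.90 and 11.94 in HFD viAPs and 8.87 and 8.65 in HFD scAPs. Those most like Gata6 were Rspo1 (0.987), Star (0.987), Col6a6 (0.986), F2r (0.985) and P2ry1 (0.985). Rspo1, a Wnt pathway agonist, and Star, the cholesterol carrier of steroid-making cells, both rank beside Gata6 with replicate 4 slightly above the scAP arrays, at 7.63 and 5.78.

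The relatives of the members were examined as lists. Of the other T-box genes 13 of 15 were measured, and limma called 0 in each of the 5 comparisons, with and without SD viAP replicate 4. Tbx3, a factor of the limb and mammary gland, read 7.51 on SD viAP replicate 3 and 7.55 and 7.63 in HFD viAPs, above the 6.83 to 7.38 of the scAP arrays, and 6.91 on SD viAP replicate 4. Tbx18 ranged from 6.54 to 7.50 over the arrays and Tbx2 from 6.41 to 6.89, and both overlapped between the depots. The median difference of the list between the HFD depots was -0.08, beside -0.01 over all probe sets with 1 symbol. All 6 of the other GATA factors and their cofactors were measured and 0 were called in any of these fits. Among them Zfpm2, a cofactor of Gata4, read 7.72 on SD viAP replicate 3 and 8.13 and 8.08 in HFD viAPs, against 6.79 to 7.23 on the scAP arrays and 6.86 on SD viAP replicate 4. Gata2, a factor of blood and endothelial cells, read 6.74, 6.19 and 6.44 on the same viAP arrays, 5.67 to 6.07 on the scAP arrays and 5.95 on replicate 4. Like Tbx3, both were higher on the 3 viAP arrays than on every scAP array, as 5.23% of 21789 probe sets were. Their differences of depot means were under 2-fold under each diet, and Gata2 stayed below 7 on every array. Of the paralogs of the remaining members, 12 of 13 were measured. Over all arrays 0 were called, and without replicate 4 only Nr2f2 was, in SD viAPs against SD scAPs.

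Nr2f2, or COUP-TFII, the close relative of Nr2f1, read 7.17 and 7.46 in SD scAPs, 8.44 and 8.02 in SD viAPs, 8.61 and 8.52 in HFD viAPs and 8.04 and 7.67 in HFD scAPs. On SD viAP replicate 4, at 8.02, it was above both SD scAP arrays and between the HFD scAP arrays. Its SD depot difference was 0.92 (SE 0.20, adjusted p = 0.115) over all arrays and 1.13 (SE 0.22, adjusted p = 0.0358) without replicate 4, from limma.

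Of 64 factors that pattern the limb, trunk and mesoderm, 58 were measured. Between the HFD depots over all arrays limma called 0 higher and 1 lower in viAPs. That gene was Osr2, a zinc finger factor of the limb and palate, which read 10.75 and 10.97 in HFD scAPs against 9.29 and 9.24 in HFD viAPs (-1.59, SE 0.25, adjusted p = 0.045 from limma). For the diet difference in viAPs it called 1 higher and 0 lower. That gene was Eya2, a transcriptional cofactor of the eyes absent family, which read 7.29 and 6.23 in SD viAPs and 8.20 and 8.12 in HFD viAPs (1.41, SE 0.33, adjusted p = 0.0121 from limma), but without SD viAP replicate 4 its difference was 0.88, under 2-fold (adjusted p = 0.0248 from limma). In the other 3 comparisons 0 of the 58 were called over all arrays. Between the HFD depots the 1 of 58 stands beside 1.98% of filtered probe sets and 0.00459% of all with 1 symbol. For diet in viAPs the 1 of 58 stands beside 13.5% and 1.74%. Of the 58, 16 exceeded 7 on at least 3 arrays.

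When SD viAP replicate 4 was left out, 8 of the 58 were called between the HFD depots, where 7.42% of filtered probe sets were. Those outside the filter were adjusted over all probe sets with 1 symbol. The share of all probe sets called in that fit, given above for the members, is smaller than that of the filtered ones. The 4 called factors with the largest differences were Osr2 (-1.59), Emx2 (-1.45), Foxp2 (1.41) and Meox2 (-1.30). Emx2, a homeodomain factor of the shoulder girdle and urogenital tract, read 6.81 and 6.98 in HFD scAPs and 5.39 and 5.49 in HFD viAPs. Meox2, a homeodomain factor of the somite and limb muscle, read 7.74 and 7.50 in HFD scAPs and 6.71 and 5.93 in HFD viAPs. The remaining 4, which lie outside the rule for naming and are given to complete the count, were Eya2, Alx1 and Meis1, higher in viAPs, and Prrx1, lower. The factors called between the SD depots in this fit rest on replicate 3 as the lone SD viAP array. They were Eya2 and Meis1, higher in viAPs, and Meox2, Prrx1 and Twist1, lower.

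Retinoic acid carries position along the body axis and is made from retinol by Rdh10 and the Aldh1a enzymes. Of 21 genes of its synthesis, breakdown and receptors 20 were measured, and over all arrays limma called 0 in each comparison. The count with an unadjusted p under 0.05 between the HFD depots was 7, where 9.24% of all probe sets with 1 symbol had one. In the fit without SD viAP replicate 4 it called 3 between the HFD depots, Aldh1a2 and Rdh10 higher and the receptor Rxrg lower in viAPs, where 7.42% of filtered probe sets and 1.28% of all with 1 symbol were called. Aldh1a2, the main retinaldehyde dehydrogenase of mesoderm, had levels of 5.81 and 5.86 on the SD scAP arrays, 8.33 on SD viAP replicate 3, 5.83 on its replicate 4, 8.56 and 8.43 in HFD viAPs and 5.39 and 5.25 in HFD scAPs. Its HFD depot difference was 3.17 (SE 0.70, adjusted p = 0.0624 over all arrays and 0.000613 without replicate 4 from limma). Its levels were thus split by depot like those of Tcf21 and Wt1, with replicate 4 at the scAP level. Rdh10 read 8.19 and 8.23 in HFD scAPs and 9.51 and 9.41 in HFD viAPs, a difference of 1.25 (adjusted p = 0.162, and 0.00403 without replicate 4 from limma). For SD viAPs that fit holds replicate 3 alone. On that array Rdh10 read 9.05 and Aldh1a2 8.33, both above the SD scAP arrays.

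**Figure D4:**
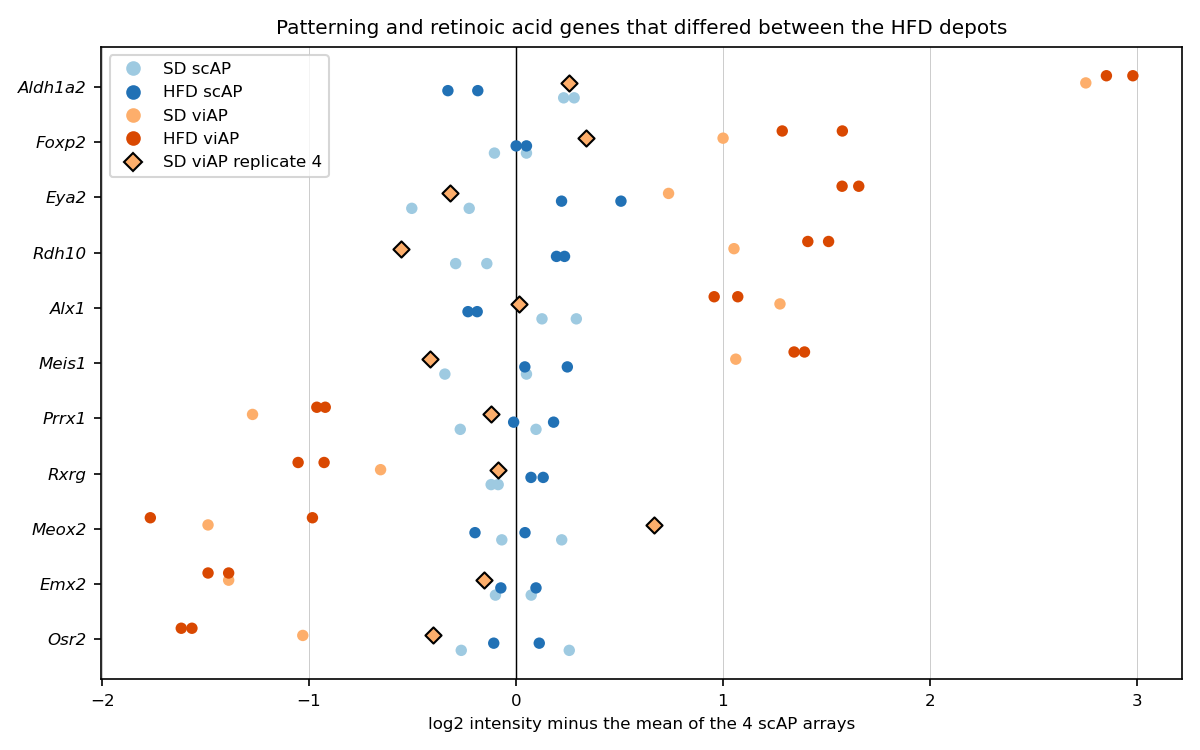
Log2 intensity minus the mean of the 4 scAP arrays (x axis) on each array for the 8 patterning factors and 3 retinoic acid genes (y axis) that were called between the HFD depots without SD viAP replicate 4. Points are arrays coloured by group and the diamond is that array. For Aldh1a2 the other 3 viAP arrays lie at 8.33 to 8.56 in log2 level, and the diamond, at 5.83, lies with the scAP arrays.

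Markers of other cells were set beside the members because Wt1, Gata6 and Tcf21 are also made by mesothelium, the epithelial layer that covers perigonadal fat. Of 16 mesothelial markers measured, 3 exceeded 7 on at least 3 arrays. Their summed intensity was 1036 to 1138 on the scAP arrays, 1774 to 1918 on SD viAP replicate 3 and both HFD viAP arrays, and 1238 on SD viAP replicate 4. Of the 16, 4 were higher on these 3 viAP arrays than on every scAP array and 0 were lower. Over 21789 probe sets the shares were 5.23% and 4.34%. Cldn15, 1 of the 3 above 7, read 8.25 and 7.97 in HFD scAPs against 7.61 and 7.60 in HFD viAPs. Under SD it read 7.19 and 7.55 in scAPs and 7.61 and 7.86 in viAPs. Rspo1 made up much of the sum, and without it the other 15 summed to 869 to 991 on the scAP arrays, 1330 on SD viAP replicate 3, 1040 on replicate 4 and 1078 and 1159 in HFD viAPs. Upk3b read 5.58 to 5.93 on the scAP arrays, 7.77 and 6.13 on replicates 3 and 4 of SD viAP, and 6.55 and 7.08 in HFD viAPs. Msln read 5.00 to 5.43 on the scAP arrays, 6.02 and 5.39 in SD viAPs and 5.36 and 5.61 in HFD viAPs, and Krt19 stayed between 5.39 and 6.09 on all 8. Upk3b was highest on SD viAP replicate 3 while Wt1 was highest on HFD viAP replicate 6. The part of mesothelial RNA in the levels of Wt1, Gata6 and Tcf21 was not tested.

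**Figure D5:**
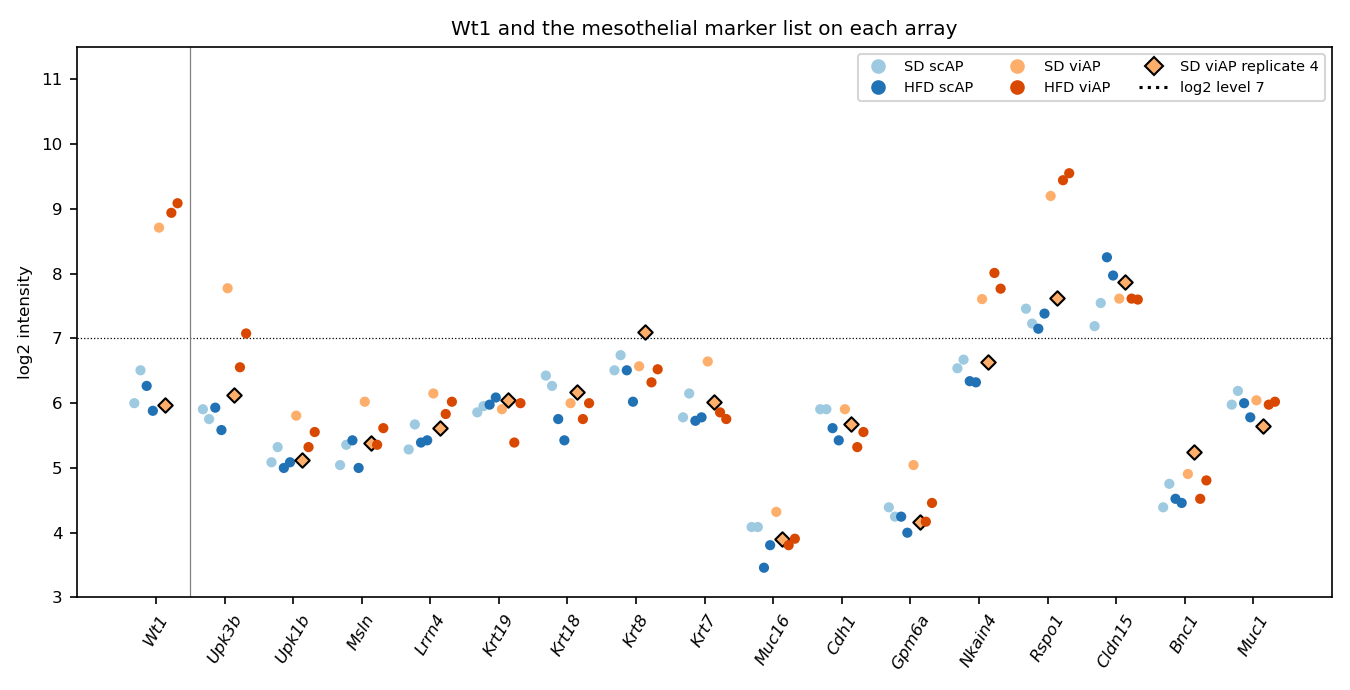
Log2 intensity (y axis) of Wt1 and of the 16 mesothelial markers (x axis) on each array, coloured by group, with SD viAP replicate 4 as a diamond and the level 7 as a dotted line. Rspo1, Nkain4 and Upk3b are higher on the other viAP arrays than on the scAP arrays, while the keratins and Msln stay below 7 or, for Krt8, near it. Cldn15 is highest on the HFD scAP arrays.

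Of 12 markers of the precursors themselves that were measured, 11 exceeded 7 on at least 3 arrays. Pdgfra ranged from 11.01 to 11.56, Cd34 from 11.38 to 12.37 and Dcn from 13.64 to 13.79. Cd24a stayed between 5.29 and 6.70 on all 8. On SD viAP replicate 3 and both HFD viAP arrays 4 of the 12 were lower than on every scAP array, as 4.34% of 21789 probe sets were. Among them was the collagen gene Col1a1, at 11.98, 12.27 and 12.27 against 12.94 to 13.16. Col1a1 read 13.20 on SD viAP replicate 4. The SCA-1 gene used in the sort, Ly6a, had no probe set with 1 symbol. Endothelial markers summed to 2989 and 3014 on the HFD scAP arrays and to 1350 to 1751 on the others. All 12 were lower on both HFD viAP arrays than on both HFD scAP arrays, where 20% of 21789 probe sets were. The germ cell genes Prm1 and Prm2 read 7.69 and 8.27 on HFD viAP replicate 6 and 6.83 and 7.09 on SD viAP replicate 3. They read 6.09 and 6.27 on SD viAP replicate 4 and 5.61 and 6.02 on HFD viAP replicate 5. No scAP array exceeded 6.09 in either gene, and their part in the differences of the members was not tested. No measured macrophage (8 of 8), lymphocyte (8 of 9) or erythroid marker exceeded 7 on at least 3 arrays, but only 2 of 6 erythroid markers were measured. Of the mature adipocyte markers 8 of 10 were measured, and of the lymph node stroma markers 5 of 7. The former summed to 2141 to 2745 under SD, 796 and 1278 in HFD scAPs and 490 and 557 in HFD viAPs. The latter summed to 2602 to 5479 under SD, 1949 and 2550 in HFD scAPs and 641 and 678 in HFD viAPs. The part of these cells in the levels of the members was not tested.

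Pericyte and smooth muscle markers moved in both directions with the depot. The 10 measured summed to 1054 to 1227 on the scAP arrays, 1178 and 1326 in SD viAPs and 1162 and 1514 in HFD viAPs. On SD viAP replicate 3 and both HFD viAP arrays 4 were higher than on every scAP array and 2 were lower. Over 21789 probe sets the shares were 5.23% and 4.34%. Des, which encodes the muscle filament protein desmin, read 7.84, 8.61 and 8.22 on these viAP arrays, 5.32 on SD viAP replicate 4 and 5.32 to 5.93 on the scAP arrays. Abcc9, a subunit of potassium channels, read 7.17, 6.13 and 5.83 on them, 8.97 on replicate 4 and 8.30 to 8.75 on the scAP arrays. Both thus split the arrays as Tcf21 and Tbx15 did, with replicate 4 on the scAP side, and the part of these cells in the levels of the members was not tested.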

How the data were processed

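The authors deposited linear intensities as whole numbers, made with RMA, for 35556 probe sets on each array. Affymetrix Expression Console 1.1 is named beside RMA in the submitters' notes on processing. The antilog and rounding are not stated. Array medians lay between 5.59 and 5.75 in log2. The number of arrays limits the precision. The values were converted to log2. GEO's platform annotation gives 21789 probe sets 1 symbol, 1621 several and 12146 none. Limma 3.58.1 in R 4.3.3 was fitted to the whole table with 1 mean per group (4 residual and 2.64 prior degrees of freedom). Benjamini-Hochberg adjustment ran over the 3076 probe sets passing the study's filter (7315 passed its expression part), or for other genes over the 21789. The procedure was tested on simulated data. Figures were drawn in Python 3.11.15. Promoters came from RefSeq.

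Groups came from the labels. The text names the 10 members, of other lists the called genes (at most the 4 with the largest difference), the 5 genes most correlated with each member that passed the filter, and leading markers. Members, lists and tests were chosen with earlier results of these data known. Alternatives were other scalings, filters, model fits and leaving out each array.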

Additional observations from a re-analysis of the deposited data

Results flagged for a closer look

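The 4 arrays of each depot were examined for a single array far from the rest, by the gap to its nearest neighbour over the range of the 4. Of 20 sets of 4 arrays (10 members in 2 depots), 5 had such an array, where chance gives about 1 in 20. In viAPs SD viAP replicate 4 stood apart in 3 genes. It was highest for Tbx15 (9.77) and Tbx5 (6.95) and lowest for Wt1 (5.98). In scAPs HFD scAP replicate 8 was highest for Shox2 (7.02), and SD scAP replicate 1 was highest for Gata6 (8.24), where the 4 arrays lie between 8.15 and 8.24. The depots' arrays come from both diets, and the cause was not tested.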

How the results depend on the processing

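Of 940 values of single members recomputed under 19 other settings, 858 kept their direction and side of the threshold, 54 passed it under the other setting and 28 changed sign. Called members between the SD depots were 0 to 4 over the 8 fits that leave out 1 array, with 4 without SD viAP replicate 4. Between the HFD depots they were 0 to 6, with 6 without SD viAP replicate 3 and 6 without replicate 4. Both of these fits share their differences and errors between the HFD depots, so that they are no independent support for each other. Called members were 4 with only the 4 HFD arrays, 2 with a robust intensity trend and 6 with array weights, which came out equal within each pair of arrays. They were 5 with the model fitted to probe sets with 1 symbol and 4 with it fitted to filtered probe sets, both chosen after seeing the data. For diet in viAPs they were 0 to 5 over the fits that leave out 1 array, 1 with median centring, 1 with a robust trend, 2 with array weights, and 3 and 2 with the fits to probe sets with 1 symbol and to filtered ones. For the difference of diet changes they were 0 to 3, with 3 without SD viAP replicate 3. In scAPs 0 were called under every setting. Except for leaving out an array, the cause was not tested.

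None of the 28 values that changed sign was past the threshold. For diet in scAPs, median centring gave 0.026 for Tbx5, 0.099 for Tcf21, 0.045 for Gata4 and 0.060 for Gata6. A second quantile normalization gave -0.14 for Tbx15, 0.11 for Tcf21 and 0.020 for Gata4, and for diet in viAPs -0.049 for Gata6. The other reversals came from leaving out 1 array, over which the values ran as follows. The SD depot difference ran from -4.80 to 0.27 for Tbx15, -0.97 to 0.032 for Shox2, -0.28 to 2.46 for Wt1 and -0.44 to 0.54 for Nr2f1, with the value of changed sign without SD viAP replicate 3 in each and for Nr2f1 also without SD scAP replicate 2, and from -0.13 to 0.48 for Gata4. That of the HFD depots ran from -0.13 to 0.018 for Sim1 and -0.060 to 0.15 for Gata4. Diet in scAPs ran from -0.084 to 0.25 for Tbx15, -0.30 to 0.076 for En1, -0.32 to 0.18 for Tbx5, -0.24 to 0.24 for Tcf21, -0.43 to 0.075 for Wt1, -0.36 to 0.25 for Gata4 and -0.083 to 0.0050 for Gata6. The difference of diet changes ran from -0.44 to 0.18 for Gata4. A mean over several probe sets of a gene gave no value, since each member has 1. No paired analysis was possible because the array numbers 1 to 8 are unique and the groups share none. The 2 arrays of each group limit the precision.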
